A study of Homo sapiens with 6 samples.

Results

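A group of 38 interferon-stimulated effector genes was followed in THP1 cells, an established line from a monocytic acute myeloid leukaemia, grown with or without the Notch ligand Delta-like 4. The genes were taken by name, with earlier results of these data known. They are products of the interferon response other than the IFIT and OAS families, the guanylate-binding proteins and the ISG15 conjugation enzymes. Of the 38, 36 were measured by at least 1 probe set that the platform annotation pairs with a single gene symbol, among 19775 genes measured in that way. IFI30 and TDRD7 had no such probe set among those used, so only their promoter sequences are described here and not their expression.

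The cells were cultured for 48 hours in plates coated with Dll4-Fc, in which Delta-like 4 is fused to an antibody's Fc end (3 samples, called Dll4-Fc below), or without it (3 samples, called untreated). The sample labels call the control untreated and the treatment protocol calls it vehicle; the labels give the ligand as 60 nM and the protocol as 30 nM, so the dose is not settled. No well coated with Fc alone is named, the line is a single leukaemia line, and nothing in the labels tells whether replicates were separate cultures. The p-values therefore reflect the scatter of these 3 samples per group, part or all of which may be technical. They also draw on the variance of all genes measured, since the test used was a moderated one. Each sample was hybridised to 1 Affymetrix Human Genome U133 Plus 2.0 array, and the authors' RMA signals had medians of 50.6 to 52.7 per array on the linear scale.

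Interferons are secreted proteins that cells release when they sense viral or self nucleic acids, and that act through surface receptors, Janus kinases and STAT and IRF factors. These factors bind the interferon-stimulated response element, a short DNA motif, before the start of their target genes. The products of the genes described here carry out the response itself. Some block viruses at membranes, some cut, edit or starve nucleic acids of building blocks, and others act on translation, mitochondria or cell death. Monocytes and macrophages are among the cells that respond strongly to interferon.

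With Dll4-Fc, 31 of the 36 measured genes rose and 0 fell; at an unadjusted p under 0.05, 32 were higher and 0 lower. A gene was said to rise or fall where limma's moderated test gave an adjusted p (Benjamini-Hochberg over all 19775 genes) under 0.05. Among all genes 11.6% rose and 15% fell by the same rule, or 14.5% and 12.5% after cyclic loess normalization. Some 13351 genes, the 36 among them, reached the median signal of all probe sets on any array. With p-values adjusted over these alone, 17.9% of them rose and 24.6% fell. At least 2-fold rises were seen for 25 of the 36 genes, against 2.6% of all genes, and at least 4-fold rises for 15 of them, against 0.936%. On 32 of the 36 the 3 Dll4-Fc arrays all lay above the 3 untreated arrays, as they did for 18.1% of all genes. The median log2 difference of the group (Dll4-Fc minus untreated) was 1.60, and the median of all genes was -0.01. In a culture measured as a whole, a change in the number of cells that express a gene and a change in RNA per cell cannot be told apart.

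Promoter sequences show which of the genes carry the letters of the response element close to their start. RefSeq windows (GRCh38.p14) of 250 bases before to 50 after each listed start were found for 34 of the 38 genes. IFITM2, MX2, LY6E and LAMP3 were not matched. The core of the element was searched as GAAANNGAAA on both strands, N being any base. It was present in at least 1 window of 21 of the 34 genes, against 4.38% of the 27305 genes in the table, and in 25 of 48 windows against 3.57% of all windows. In the window of the most upstream start, 9 of the 34 genes held at least 2 matches, against 0.267% of all genes. A match is a description of letters and not a binding site shown to be used.

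The stretches below are shown because they hold the matches of the genes with the largest rises, of related members that rose by different amounts, of BST2, where matches overlap, and of 3 genes that rose little or did not pass. MX1 is left out because its match in this window lies after the start, and a further match of IFITM1 that spans the start is not shown. All lie before the most upstream listed start, read 5′ to 3′ on the gene's strand, and the matches are in capitals. They come from IFI44L (chr1:78620272-78620396, plus strand), IFI44 (chr1:78649759-78649788, plus strand), IFI27 (chr14:94110616-94110662, plus strand), EPSTI1 (chr13:42992270-42992303, minus strand) and IFI6 (chr1:27672264-27672360, minus strand). Those of related genes are from IFITM1 (chr11:313988-314021, plus strand), IFITM3 (chr11:320874-320924, minus strand), DDX60 (chr4:168318784-168318852, minus strand) and DDX60L (chr4:168480521-168480584, minus strand). The remaining 4 are from BST2 (chr19:17405733-17405772, minus strand), RTP4 (chr3:187368331-187368384, plus strand), TMEM140 (chr7:135148007-135148040, plus strand) and NMI (chr2:151289810-151289843, minus strand).
IFI44L: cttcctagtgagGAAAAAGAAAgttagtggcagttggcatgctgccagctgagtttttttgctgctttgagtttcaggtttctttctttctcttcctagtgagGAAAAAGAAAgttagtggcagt
IFI44: gggcacactgagTTTCAGTTTCctttctct
IFI27: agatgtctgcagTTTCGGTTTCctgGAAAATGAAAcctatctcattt
EPSTI1: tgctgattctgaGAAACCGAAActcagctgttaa
IFI6: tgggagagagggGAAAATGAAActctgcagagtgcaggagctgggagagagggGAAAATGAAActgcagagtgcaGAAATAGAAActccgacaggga
IFITM1: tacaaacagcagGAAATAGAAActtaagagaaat
IFITM3: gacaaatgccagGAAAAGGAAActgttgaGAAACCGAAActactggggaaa
DDX60: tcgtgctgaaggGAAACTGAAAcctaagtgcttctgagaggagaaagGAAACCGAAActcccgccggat
DDX60L: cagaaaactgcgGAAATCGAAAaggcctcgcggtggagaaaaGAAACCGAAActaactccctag
BST2: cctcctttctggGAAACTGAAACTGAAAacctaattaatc
RTP4: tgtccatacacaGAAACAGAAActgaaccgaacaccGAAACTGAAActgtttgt
TMEM140: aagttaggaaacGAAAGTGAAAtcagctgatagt
NMI: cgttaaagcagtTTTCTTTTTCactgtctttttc

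The matches differ in arrangement. In IFI27, which rose 44.4-fold, matches on both strands lie side by side, and in BST2, which rose 2.2-fold, the 2 matches overlap by 4 bases. Both IFI44L matches are copies of each other, since 85 bases before this start occur again without a change. In IFI6, a repeat of 29 bases carries the first and second of its 3 matches. DDX60 and DDX60L, neighbours on chromosome 4, each hold 2 matches, as does RTP4, which rose by 0.57 on the log2 scale. TMEM140 and NMI hold a match and did not pass the test.

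Among the 21 genes with a match, 19 rose, 18 of them at least 2-fold, with a median difference of 1.73 on the log2 scale. Of the 11 measured genes whose windows hold none, 8 rose, 4 of them at least 2-fold, with a median of 0.66; these 4 were XAF1, SAMD9L, CMPK2 and IFI35. No test was made between the 2 sets. The letters TTCNNNGAA, the binding sequence of STAT dimers, were present for 11 of the 34 genes, against 9.38% of all genes. In IFI27, EPSTI1, IFITM1, BST2 and MX1 such a match overlaps a GAAANNGAAA match, so the 2 counts share letters. The letters CGTGGGAA, a binding sequence of RBPJ, the DNA-binding partner of Notch, were found for 1 of the 34 genes, TDRD7, which was not measured, and for 1.03% of all genes.

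**Figure D1:**
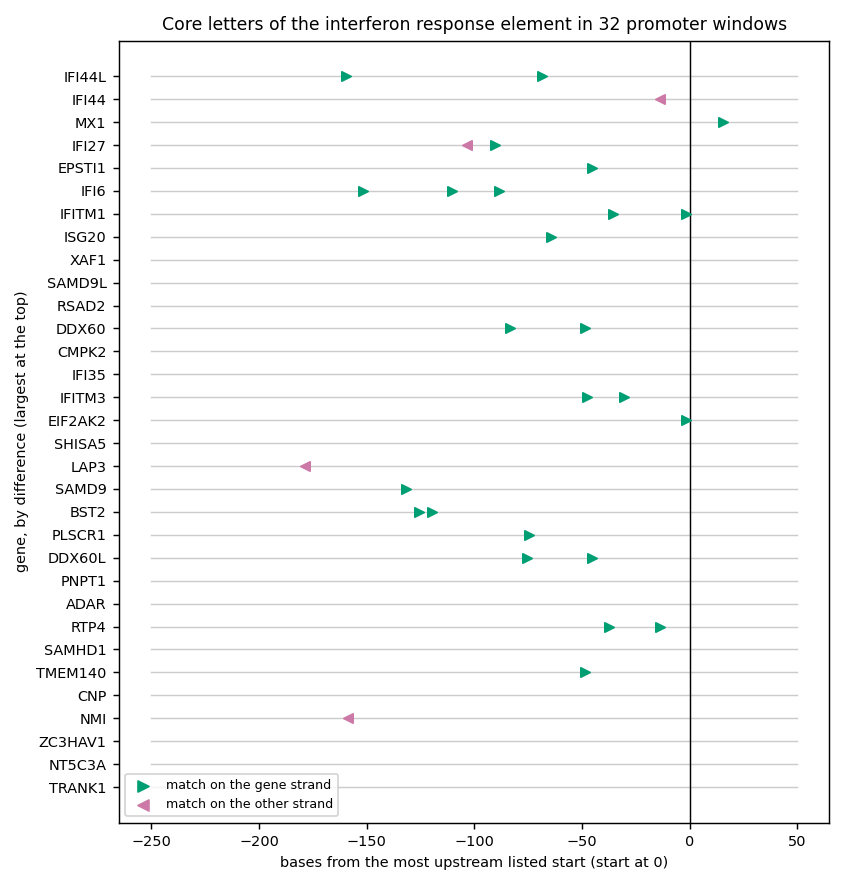
Positions of GAAANNGAAA matches in the window of the most upstream listed start, in bases from that start, for the 32 measured genes with a window, ordered by their difference. Arrows give the strand of each match; most matches before a start lie on the gene's own strand and within the last 100 bases.

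Of 26 matches that lay wholly before the most upstream start, 17 began within 100 bases of it. Of all 29 matches in these windows, 25 were on the gene's own strand. In the map of matches, genes with none in this window lie between XAF1 (2.53 on the log2 scale) and TRANK1 (-0.10). They include RSAD2 and SHISA5, which hold a match only in the window of another start.

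The group's steepest rises were those of IFI44L and IFI44, neighbouring genes on chromosome 1 whose cytoplasmic products serve as markers of an interferon response. The log2 signal of IFI44L was 4.02, 3.88 and 3.63 on the untreated arrays and 10.80, 10.62 and 10.17 on the Dll4-Fc arrays. The groups lay 6.15 apart at their nearest arrays, against a range of at most 0.62 within a group. The difference was 6.68 ± 0.17 (limma's moderated standard error, n = 3 per group), or 103-fold (limma adjusted p = 3.48e-07). Its mean untreated signal (3.84) was higher than that of 10.3% of all genes and below the median probe set (5.69), and no detection call was used, so it is not shown to be above background. The fold then rests on a signal that may be background, and its exact size and rank carry little meaning. IFI44 went from 5.15, 5.21 and 5.14 to 11.25, 11.04 and 10.71, a difference of 5.83 ± 0.13 or 57-fold. The untreated arrays of IFI44 were almost alike, and the Dll4-Fc arrays spread over 0.55. A further probe set of IFI44, which was below the median of all probe sets on every array, gave 1.31 ± 0.15, so the size of this rise depends on the probe set.

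SAMD9 and SAMD9L, neighbours on chromosome 7, encode related proteins that restrict poxviruses and limit cell growth, and inherited variants of both are linked to myeloid disease. SAMD9L had log2 signals of 8.27, 8.20 and 8.13 in untreated and 10.86, 10.72 and 10.57 in Dll4-Fc cells. It rose by 2.52 ± 0.08 (5.73-fold, adjusted p = 1.29e-06), and its other probe sets gave 2.58 and 2.65. SAMD9 moved from 9.07, 9.11 and 8.89 to 10.39, 10.21 and 10.13. Its rise was smaller, 1.22 ± 0.09 or 2.33-fold (adjusted p = 8.17e-05), and both of its probe sets rose. The 2 groups of arrays did not overlap for either gene.

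MX1 and MX2 are large GTPases. MX1 acts on influenza and other RNA viruses and MX2 on the entry of HIV into the nucleus. MX1 had log2 signals of 6.78, 6.86 and 6.68 in untreated and 12.45, 12.36 and 12.11 in Dll4-Fc cells. That is a rise of 5.53 ± 0.10 or 46.3-fold (adjusted p = 1.33e-07). MX2, the gene beside it on chromosome 21, rose from 8.57, 8.51 and 8.48 to 10.83, 10.67 and 10.38, by 2.11 ± 0.11 or 4.33-fold (adjusted p = 1.2e-05). For both genes every Dll4-Fc array lay above every untreated array. Each was measured by 1 probe set.

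Among genes for small membrane proteins of mitochondria and the endoplasmic reticulum and for regulators of cell death, all 5 rose at least 2-fold. IFI27, a small protein of mitochondria, had log2 signals of 5.55, 5.28 and 5.10 in untreated and 11.08, 11.01 and 10.27 in Dll4-Fc cells. Its rise was 5.47 ± 0.22 (adjusted p = 3.23e-06), with Dll4-Fc replicate 3 well below the other two arrays of its group. Its relative IFI6, which protects cells from death and blocks flavivirus replication, rose by 4.36 ± 0.08 (20.6-fold). XAF1, an antagonist of the caspase inhibitor XIAP, rose by 2.53 ± 0.09, and all 3 of its probe sets rose, by 1.47 to 2.53. SHISA5, a protein of the endoplasmic reticulum that promotes apoptosis, rose by 1.29 ± 0.05. PLSCR1, which moves phospholipids between membrane leaflets, rose by 1.07 ± 0.07 (2.1-fold). Of its 3 probe sets 2 rose; the other, the only probe set of PLSCR1 that is not shared, gave -0.20 ± 0.09, did not pass (adjusted p = 0.217 over all probe sets) and was below the median probe set on every array.

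The barriers that viruses meet at membranes rose as well, 4 of 5 at least 2-fold. IFITM1, IFITM2 and IFITM3, a cluster on chromosome 11, encode proteins that stop enveloped viruses from fusing with the cell. IFITM1 rose from 8.82, 8.76 and 8.51 to 12.15, 12.05 and 11.76 on the log2 scale, by 3.29 ± 0.12 or 9.77-fold (adjusted p = 2.16e-06). IFITM3 rose from 11.77, 11.66 and 11.66 to 13.52, 13.51 and 13.25, by 1.73 ± 0.09 or 3.31-fold. IFITM2 rose from 11.97, 11.96 and 11.86 to 12.82, 12.80 and 12.72, by 0.85 ± 0.06 or 1.8-fold (adjusted p = 5.59e-05). The groups did not overlap for any of the 3 genes. Each of the 3 was measured only by a probe set shared between transcripts, and these genes are close copies, so signal of one could be counted for another. LY6E, a membrane-anchored protein that blocks the fusion of coronaviruses, rose by 2.14 ± 0.10 (4.41-fold), and BST2 (tetherin), which holds budding virions on the cell, by 1.14 ± 0.07 (2.2-fold).

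**Figure D2:**
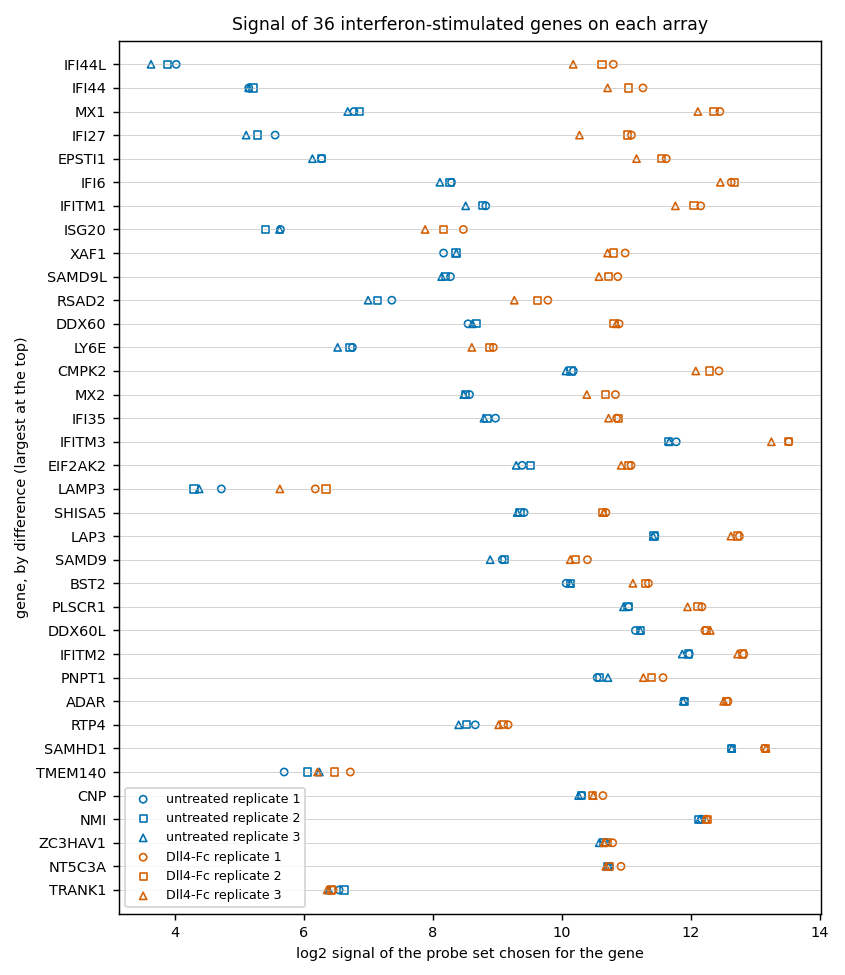
Log2 signal of each of the 36 genes on the 3 untreated (blue) and 3 Dll4-Fc (orange) arrays, 1 symbol per array, in the order of their difference. The groups are apart for 32 genes and overlap for TMEM140, ZC3HAV1, NT5C3A and TRANK1 at the foot; signals are to be compared along a row, since each row is another probe set.

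Enzymes that act on nucleotides and RNA split into 3 with at least 2-fold rises and 5 with small ones or none. ISG20, an exonuclease that degrades RNA, rose by 2.62 ± 0.15 (6.13-fold). RSAD2 (viperin) converts CTP into a chain terminator of viral polymerases, and CMPK2, its neighbour on chromosome 2, encodes a nucleotide kinase of mitochondria. RSAD2 rose from 7.36, 7.13 and 6.995 to 9.78, 9.62 and 9.26, by 2.39 ± 0.15 or 5.24-fold (adjusted p = 3.05e-05). CMPK2 rose from 10.18, 10.14 and 10.06 to 12.43, 12.29 and 12.07, by 2.14 ± 0.09 or 4.41-fold (adjusted p = 5.34e-06). On both genes Dll4-Fc replicate 3 was the lowest of its group and still 1.90 above the highest untreated array.

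The other 5 enzymes moved by less than 2-fold. PNPT1, the polynucleotide phosphorylase of mitochondria, rose by 0.79 ± 0.09 and ADAR, which edits adenosine to inosine in double-stranded RNA, by 0.66 ± 0.05. SAMHD1, which breaks down deoxynucleotides and limits retroviruses in myeloid cells, went from 12.63 on all 3 untreated arrays to 13.14, 13.16 and 13.16. Its rise of 0.52 ± 0.05 (1.44-fold, adjusted p = 0.00023) was small but its arrays hardly varied, and 5 of its 6 probe sets rose. CNP, a phosphodiesterase best known from myelin, went from 10.30, 10.31 and 10.26 to 10.63, 10.47 and 10.48. Its difference of 0.24 ± 0.06 passed (adjusted p = 0.0254), but it was lost when untreated replicate 1, 2 or 3 or Dll4-Fc replicate 1 was left out (adjusted p = 0.0551 to 0.0881). With the mean of its probe sets CNP gave 0.13 (adjusted p = 0.152), and without shared probe sets 0.01 (adjusted p = 0.945). In the limma fit over all probe sets its 2 probe sets did not pass (adjusted p = 0.0518 and 0.950). NT5C3A, a pyrimidine nucleotidase, had 10.74, 10.71 and 10.72 against 10.91, 10.73 and 10.68, a difference of 0.05 ± 0.07 that did not pass (adjusted p = 0.654).

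Of 4 RNA-binding proteins that sense or act on viral RNA, 3 rose at least 2-fold. EIF2AK2 (PKR), a kinase that halts translation when it binds double-stranded RNA, rose by 1.61 ± 0.08 (3.05-fold), and its 3 probe sets rose by 1.26 to 1.61. The helicase gene DDX60 had log2 signals of 8.54, 8.67 and 8.61 in untreated and 10.89, 10.81 and 10.84 in Dll4-Fc cells, a rise of 2.24 ± 0.06 (4.71-fold, adjusted p = 4.04e-07). Its neighbour DDX60L rose from 11.14, 11.22 and 11.21 to 12.22, 12.24 and 12.30, by 1.06 ± 0.05 (2.09-fold), and its other probe set gave 1.07. For neither helicase gene was Dll4-Fc replicate 3 the lowest of its group. ZC3HAV1 (ZAP), which targets CpG-rich viral RNA for decay, had 10.67, 10.64 and 10.58 against 10.79, 10.70 and 10.65. The groups overlapped and the difference of 0.08 ± 0.06 did not pass (adjusted p = 0.402). Another probe set of ZC3HAV1 rose by 0.37 ± 0.09 (adjusted p = 0.0256 over all probe sets), while the other gave 0.08.

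The remaining genes encode scaffold, transport and peptide-processing proteins. EPSTI1, named for its induction where epithelium meets stroma, had log2 signals of 6.27, 6.27 and 6.13 in untreated and 11.62, 11.54 and 11.15 in Dll4-Fc cells. It rose by 5.21 ± 0.12 (37-fold, adjusted p = 2.36e-07), and its second probe set by 3.71. LAP3, a leucine aminopeptidase, rose by 1.27 ± 0.06, and LAMP3, a lysosomal membrane protein of mature dendritic cells, by 1.58 ± 0.19 (adjusted p = 0.000907). RTP4, which helps receptors to the cell surface, rose by 0.57 ± 0.08 (1.48-fold, adjusted p = 0.00176).

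IFI35 and NMI, whose proteins bind each other, differed in their response. IFI35 rose from 8.97, 8.84 and 8.79 to 10.85, 10.88 and 10.72, by 1.95 ± 0.07 or 3.86-fold (adjusted p = 2.08e-06). NMI had 12.16, 12.12 and 12.13 in untreated and 12.24, 12.25 and 12.23 in Dll4-Fc cells. Its arrays did not overlap between groups, but the difference of 0.10 ± 0.05 did not pass (adjusted p = 0.181). With a trended robust prior it passed at the same size (adjusted p = 0.0154). The difference between the responses of the 2 genes was not tested.

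TMEM140, a membrane protein, and TRANK1, a large protein with ankyrin repeats, did not pass either. TMEM140 had log2 signals of 5.69, 6.06 and 6.24 against 6.72, 6.48 and 6.21, with untreated replicate 3 above Dll4-Fc replicate 3. The difference of 0.47 ± 0.17 did not pass (adjusted p = 0.0805). It passed without untreated replicate 3 (0.59, adjusted p = 0.0463), without Dll4-Fc replicate 3 (0.60, 0.0477), with a trended robust prior (0.0292) and when arrays were weighted (0.57, 0.0179). TRANK1 had 6.55, 6.62 and 6.39 against 6.45, 6.43 and 6.36, a difference of -0.10 ± 0.07 (adjusted p = 0.366).

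**Figure D3:**
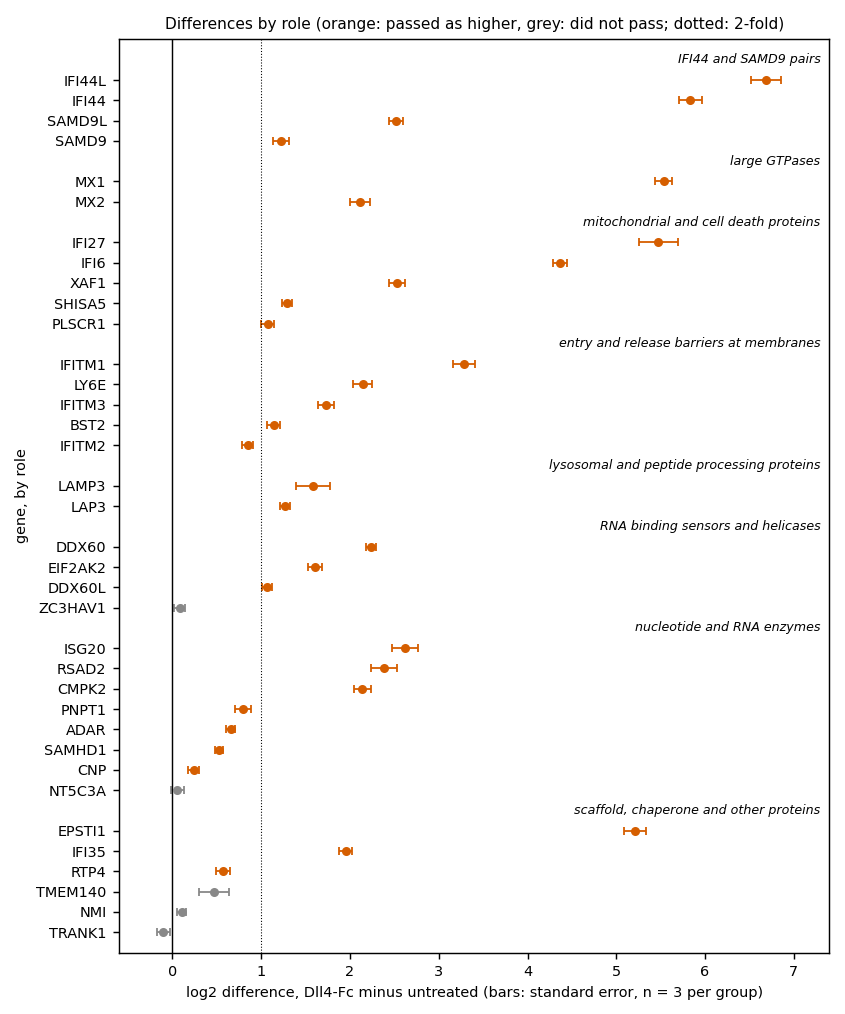
Log2 difference (Dll4-Fc minus untreated) of each of the 36 genes, grouped by role, with limma's moderated standard errors (n = 3 arrays per group). Orange points passed as higher and grey points did not pass; the dotted line marks a 2-fold rise, which 25 genes exceed, and the enzyme and scaffold groups hold most points near 0.

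Counted by role, the genes that did not pass were 1 of 8 nucleotide and RNA enzymes, 1 of 4 RNA-binding proteins and 3 of 6 scaffold and other proteins. The plot of differences by role shows that every role held a rise of at least 2-fold. The medians ran from 0.52 for scaffold and other proteins and 0.72 for nucleotide and RNA enzymes to 4.18 for the IFI44 and SAMD9 genes. Roles were assigned by hand and hold 2 to 8 measured genes each.

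Several probe sets were available for 13 of the 36 genes. Of all 58 probe sets of the group 48 rose and 0 fell, where 7.21% of the 54675 probe sets on the array rose, with p-values adjusted over all of them. All probe sets rose for 9 of the 13 genes; the exceptions were PLSCR1, SAMHD1, CNP and ZC3HAV1. SAMD9L, RSAD2, SAMD9 and DDX60L gave similar rises with each probe set, whereas IFI44, EPSTI1 and XAF1 gave smaller ones with their dimmer probe sets. For 9 genes every probe set is shared between transcripts.

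**Figure D4:**
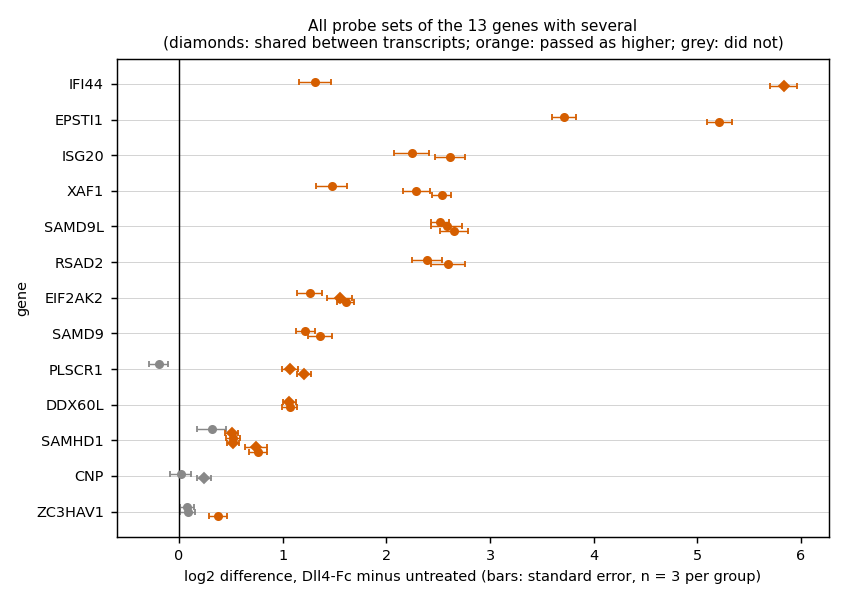
Log2 difference (Dll4-Fc minus untreated) of every probe set of the 13 genes with several, with limma's moderated standard errors (n = 3 arrays per group). Diamonds are probe sets shared between transcripts; the points of IFI44 lie at 1.31 and 5.83, while those of SAMD9L lie within 2.52 to 2.65.

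The genes varied together within the Dll4-Fc group, and less widely but in the same replicate order within the untreated group. In the untreated group the median deviations of all genes had that order too. Among the Dll4-Fc arrays replicate 3 gave the lowest signal for 31 of the 36 genes, where it was the lowest for 32.6% of all genes. Replicate 1 of that group was the highest for 30 of them, against 22.3% of all genes. The median deviation from a gene's group mean was 0.12, 0.02 and -0.13 on Dll4-Fc replicates 1, 2 and 3, and -0.01, 0.00 and 0.01 over all genes. The widest deviation was that of IFI27 on replicate 3, -0.52. Among the untreated arrays replicate 3 was the lowest for 24 of the 36, against 44.3% of all genes. The median deviation there was -0.05 for the 36 and -0.014 over all genes. Untreated replicate 1 was the highest for 22 of the 36, against 37.9% of all genes. The median deviation on it was 0.014 over all genes and 0.04 for the 36. The range of a gene over the 3 arrays had a median of 0.25 in the Dll4-Fc and 0.14 in the untreated group. These shifts are small beside the differences between groups: the gap between the nearest arrays was wider than either group's range for 32 genes. Without Dll4-Fc replicate 3 the median difference was 1.72 and 32 genes rose.

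**Figure D5:**
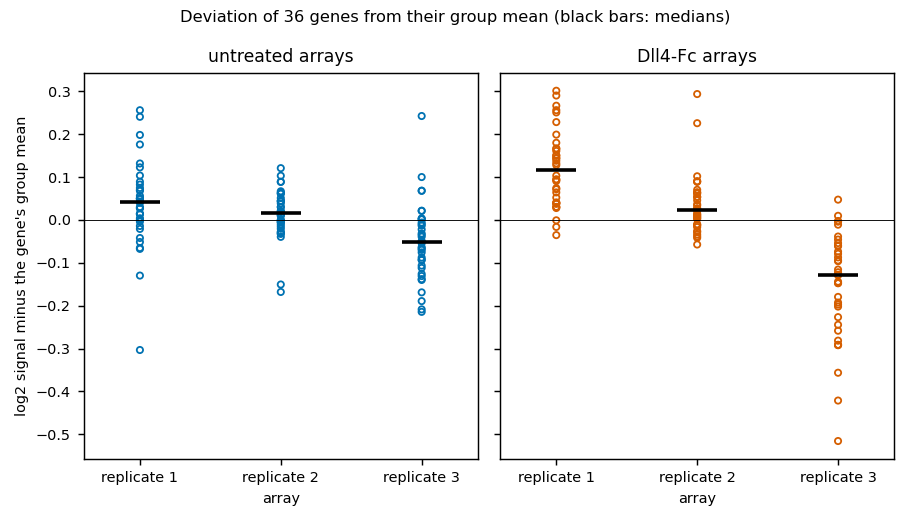
Deviation of each of the 36 genes from its own group mean on every array, in log2 units, with black bars at the median. On Dll4-Fc replicate 3 most genes lie below 0 (median -0.13) and on replicate 1 above it (0.12); the untreated arrays lie closer together.

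Other genes of the interferon pathway were set beside the group, from lists also chosen with earlier results of these data known. No interferon gene passed: of 18 measured ligands 0 rose and 0 fell, and 17 were below the median probe set on every array. At an unadjusted limma p under 0.05 there was 1 lower ligand, IFNW1, a type I interferon (-0.21 ± 0.07, adjusted p = 0.08), and 0 higher. IFNB1, the beta interferon, differed by 0.18 ± 0.11 (adjusted p = 0.283). Of 6 receptor genes 5 rose, including the type I receptor chains IFNAR1 (0.31 ± 0.08) and IFNAR2 (0.47 ± 0.06) and the interferon gamma receptor chain IFNGR1 (1.58 ± 0.06). Of 7 measured kinases and transcription factors 4 rose and 0 fell, led by IRF7 (2.65 ± 0.09) and IRF9 (1.74 ± 0.07), which carry the response to DNA. Of 8 brakes 2 rose and 2 fell: USP18, which removes ISG15 and blocks the receptor, rose by 3.29 ± 0.13 and PTPN2 by 0.36 ± 0.05, and PIAS1 (-0.40 ± 0.06) and PIAS3 (-0.24 ± 0.07) fell.

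Of 14 sensors and adaptors 6 rose and 2 fell, the adaptors MAVS (-0.29 ± 0.06) and STING1 (-0.99 ± 0.08). The endosomal RNA receptor TLR8 (4.38 ± 0.09), IFIH1 (2.21 ± 0.08) and RIGI (2.19 ± 0.15) rose most. All 12 measured genes of the IFIT, OAS and ISG15 families rose at least 2-fold, with a median of 3.70. They were led by IFIT1 (5.94 ± 0.28), IFIT3 (4.75 ± 0.15) and OAS2 (4.41 ± 0.11). Dll4-Fc replicate 3 was the lowest of its group for 12 of them, and untreated replicate 3 the lowest of its group for 11. Of 8 genes known chiefly as targets of interferon gamma 5 rose: GBP1 (5.34 ± 0.14), GBP2 (3.10 ± 0.13), GBP4, GBP5 and CXCL9, the last 3 by 0.41 to 0.57. Of the 8, 3 were below the median probe set on every array, CXCL9 among them. Together these lists hold 34 genes that rose and 4 that fell, or 37 and 2 after cyclic loess. Among all genes 11.6% rose and 15% fell, or 14.5% and 12.5% after cyclic loess. Of the 34, 12 belong to the IFIT, OAS and ISG15 families, and no ligand is among them.

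Arrays of a group correlated at r = 0.997 to 0.999 over genes and arrays of different groups at 0.981 to 0.985. HES1, a main target of Notch, rose by 2.93 ± 0.20 with its brightest probe set. In the limma fit GAPDH differed by 0.02 ± 0.05 (adjusted p = 0.78) and ACTB by 0.14 ± 0.05 (adjusted p = 0.0807). For ACTB all Dll4-Fc arrays lay above all untreated arrays, as for 18.1% of all genes. The 7 measured myeloid markers were between 4.21 and 13.98 on the log2 scale and none was below the median probe set on every array. Of these, 4 rose: CD86 (2.80 ± 0.10), LYZ (2.00 ± 0.08), CSF1R (1.75 ± 0.06) and SPI1 (0.31 ± 0.06). The 3 that fell were MPO (-0.79 ± 0.11), CSF3R (-0.45 ± 0.06) and FUT4 (-0.26 ± 0.06). The summed linear signal of the 7 was 10583 to 10823 in untreated and 20479 to 22384 in Dll4-Fc cells. In Dll4-Fc cells that sum rests largely on LYZ, whose mean log2 signal was 13.87, against 11.87 in untreated cells. The part of these markers in the rise of the effector genes was not tested. Of 5 T cell, 4 B cell, 4 NK cell, 2 erythroid and 5 fibroblast and epithelial markers 1 passed, PAX5 (0.60 ± 0.10). Of 4 markers of plasmacytoid dendritic cells, which produce interferon, 0 passed in the limma fit, and 1, IL3RA, had an unadjusted p under 0.05 (-0.21 ± 0.07).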

How the data were processed

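RNA of 6 samples (5 ng each amplified and biotin-labelled with NuGEN Ovation kits, per the labels' protocols) was read on 6 arrays, 3 per group. The deposited values are RMA intensities of probe sets, on a linear scale; the authors used RMA, per the submitters' processing notes, in a version not given in the sources. RMA corrects background, quantile normalizes and summarizes probes, so dim probe sets have compressed differences and changes in total RNA are not visible. Nothing was filtered or floored. The number of arrays limits the precision.

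Here the 54675 intensities per array were log2 transformed. The platform annotation gave 41097 probe sets exactly 1 gene symbol, 1801 several and 11777 none; 41043 matched a current RefSeq gene number with 0 symbols changed. For 19775 genes the brightest probe set, by its mean on the 6 arrays, stood for the gene. The comparison used limma 3.58.1 under R 4.3.3 (lmFit and eBayes, default prior, 2-sided, 4 residual degrees of freedom), adjusted over all genes by Benjamini-Hochberg with 0.05 as the threshold; the fit was repeated on all probe sets, and tested on simulated data. Values after ± are limma's moderated standard errors of the difference with n = 3 per group, and folds are powers of 2. These standard errors draw on the variance of all genes, or all probe sets, in the fit. They are not the scatter of a gene's own arrays alone. Probe sets whose ID ends in _s_at or _x_at are called shared between transcripts. The genes, lists and tests were chosen with earlier results of these data known. All 36 genes are named, with every array's value for the 5 largest and 5 smallest differences, for genes that did not pass and for related genes; from each other list up to 3 passing genes by size are named, plus the 5 measured ones of 7 fixed signalling genes (IFNB1, IFNAR1, IFNAR2, IRF9 and USP18). HES1, GAPDH, ACTB, the myeloid markers, PAX5 and the listing of some small counts fall outside this rule. Alternatives were the mean of all probe sets, no shared probe sets, no dim genes, cyclic loess, median centring, a trended robust prior, array weights, a replicate block and leaving out each array. The motifs were chosen after the expression values were seen. Over all genes, same-numbered arrays of the groups did not deviate together (r = 0.01, -0.21 and -0.15), so the numbers were not used as pairs. For the 36 genes the median deviations had the same order in both groups, replicate 1 being highest and replicate 3 lowest. Over all genes the untreated medians had this order and the Dll4-Fc medians the reverse one.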

Additional observations from a re-analysis of the deposited data

How the results depend on the processing

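The number of genes that rose, 31, was 30 to 33 of 36 under the alternatives run on all 36, 21 of 27 without shared probe sets, and 30 to 32 when any 1 array was left out; 0 fell under each of them. The number that rose at least 2-fold stayed at 25 under those alternatives, other than 24 with the mean of all probe sets and 18 of 27 without shared probe sets. The median difference was 1.52 to 1.72 when 1 array was left out, highest without Dll4-Fc replicate 3. With the replicate number as a replicate block 30 genes rose, CNP being the call lost (adjusted p = 0.065). Under that block 34 of the other pathway genes rose and 2 fell, where 9.25% of all genes rose and 10.4% fell. After cyclic loess 2 of the other pathway genes also fell, in place of 4. PLSCR1 changed sign to -0.20 without shared probe sets, which left only a dim probe set, and IFI44 then gave 1.31 in place of 5.83. With the mean of all probe sets IFI44 gave 3.57 and PLSCR1 0.70. NT5C3A, which did not pass, gave -0.014 to 0.103 when 1 array was left out, below 0 without Dll4-Fc replicate 1. Signals of probe sets near background limit the size of the largest folds: IFI44L, IFI44, IFI27, ISG20 and LAMP3 were on average below the median probe set in untreated cells.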

Other observations

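A probe set that the annotation pairs with both IFITM1 and IFITM2 stood outside the gene-level comparison. Its log2 signal was 9.07, 9.07 and 8.77 on the untreated arrays and 12.44, 12.18 and 11.87 on the Dll4-Fc arrays. The difference was 3.19 ± 0.15 (adjusted p = 5.56e-06 over all probe sets), beside 3.29 for the probe set of IFITM1 and 0.85 for that of IFITM2.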
